A study of Mus musculus with 31 samples.

Results

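Testes of Wv/Wv mouse embryos were compared with testes of wild-type embryos at 14 dpc (days post coitum), to ask which transcripts of the fetal testis depend on its germ cells. The members were chosen by the sample titles and are 5 of the 31 arrays of the series: 3 wild-type and 2 Wv/Wv testes, each a whole male gonad RNA sample on its own Affymetrix 3′ expression array. The series holds ovaries and testes of both genotypes at 12, 14 and 16 dpc. Of these, the 14 dpc ovaries (3 wild-type and 3 Wv/Wv arrays) and the 16 dpc testes (3 and 3) are set beside the 14 dpc testes below. Wv is a missense allele of Kit whose receptor has a weakened kinase, and Wv/Wv embryos carry it on both copies in every cell, somatic cells included. No treatment is named in the labels, and these sources name no strain. Arrays of a group are labelled as biological replicates, but nothing says if each was 1 embryo or a pool, so p-values reflect the variation among these samples, part of which may be technical.

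Kit is the receptor for stem cell factor, the product of Kitl, and primordial germ cells need it to survive and multiply on their way to the gonad. In the fetal testis the germ cells are enclosed with Sertoli cells in cords, stop dividing without entering meiosis and, for a short time, express Nodal and its targets together with pluripotency genes. In the fetal ovary at the same age retinoic acid induces Stra8 and the germ cells enter meiosis. In whole gonads, fewer germ cells and less RNA per germ cell cannot be told apart.

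Values are log2 signals, and a change is the Wv/Wv minus wild-type difference from a linear model (limma) over all 31 arrays, with its standard error. Arrays of the series fell into 2 classes by the SD over their probe sets, and the model holds the class as a term. All 3 wild-type testes and Wv/Wv array 1 were wide (SD 2.35 to 2.38), while Wv/Wv array 2 was narrow (SD 2.14). The Gapdh 3′ minus 5′ difference was 0.61 on Wv/Wv array 2 and 1.96 to 2.17 on the other 4. Levels under 5.705 are called low. This is the 40th percentile over the 34958 probe sets with 1 gene symbol on all 31 arrays. It is a chosen cut and not a measured detection limit, and a low level may not be told from none there. The tissue label fitted the markers: Cyp17a1, an androgen-making enzyme of Leydig cells, read 13.26 to 13.65 on the 5 arrays against a mean of 6.39 in wild-type ovaries, and Foxl2, a pregranulosa factor, read 6.26 to 7.23 against 9.56.

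The Wv/Wv testis at 14 dpc showed loss of signal in a small set of genes and almost no gain. Of 18194 genes, 139 (0.764%) were called, 138 (0.758%) lower and 1 (0.0055%) higher, at a Benjamini-Hochberg adjusted p below 0.05. The median change of all genes was 0.06, and that of the genes called lower was −1.91, with a range from −6.38 to −0.79. Among the falls, 68 were of at least 2 on the log2 scale, 36 of at least 3, 16 of at least 4 and 5 of at least 5. In all 138 both mutant arrays lay below all 3 wild-type arrays, a pattern that 14.9% of all genes show in this direction and 17.3% in the other. Both mutant arrays were low for 83 of the 138, and for these the size of the fall is limited by the floor of the arrays. For 9 of the 138 the wild-type mean was low too. Leaving out mutant array 1 gave 81 calls, 72 of them among the 139, and leaving out mutant array 2 gave 92, all among the 139. Array weights gave 255 calls.

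**Figure D1:**
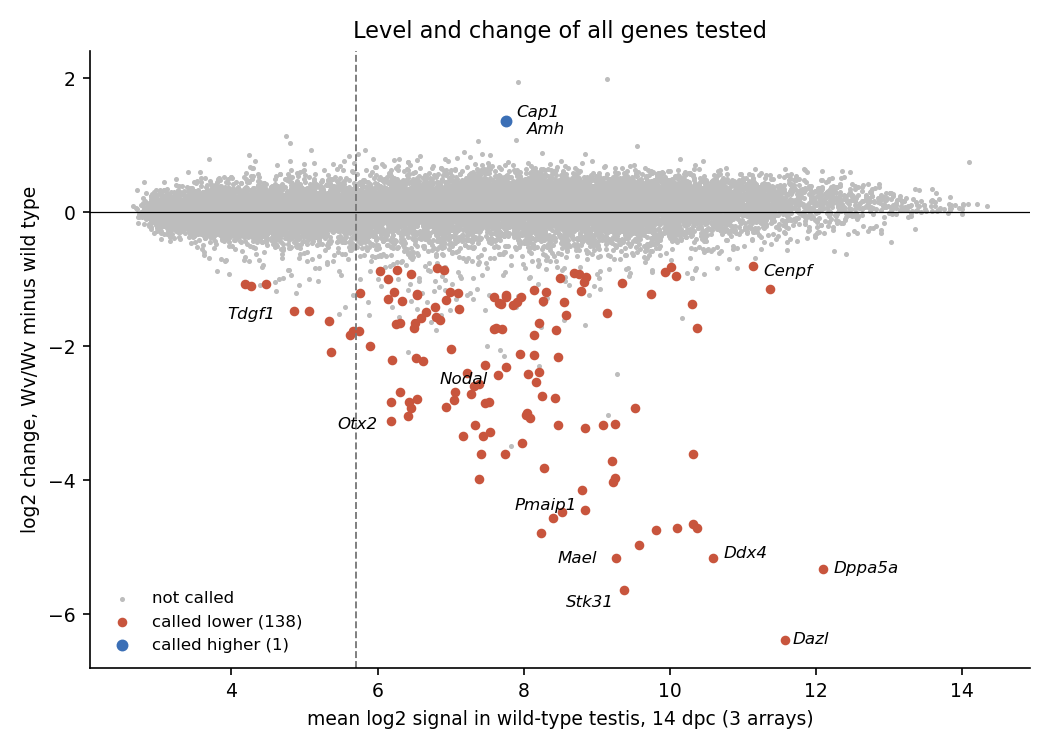
Mean log2 signal over the 3 wild-type testes at 14 dpc (x) against the log2 change, Wv/Wv minus wild type (y), 1 point per gene; the dashed line is the low-signal limit. The 138 genes called lower reach down to −6.38 (Dazl), while Cap1 is called higher at 1.36.

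Of the 138 genes, 53 were on the 7 lists of germ line genes described next, and 57 on any of the 29 lists. The lists were chosen with earlier results of these data known, so their counts describe the pattern and do not test it.

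RNA-binding and RNA-processing proteins of germ cells held 3 of the 5 falls of at least 5, those of Dazl, Stk31 and Ddx4; the other two were of Dppa5a and Mael. Dazl, an RNA-binding protein that prepares germ cells for sexual development, read 11.36, 11.56 and 11.79 in wild type and 5.62 and 3.79 in Wv/Wv. Ddx4, the germ cell RNA helicase, read 10.29, 10.73 and 10.77 against 5.60 and 3.67. Stk31, a kinase with a Tudor domain, read 8.83, 9.58 and 9.72 against 3.52 and 2.95. In these 3 genes the mutant arrays lay far below every wild-type array, and both were low. Dazl fell by 6.38 ± 0.57 (adjusted p = 1.44e-07), Stk31 by 5.64 ± 0.48 and Ddx4 by 5.15 ± 0.50. Rpl39l, a paralogue of a ribosomal protein, fell by 4.74 ± 0.48. Tex14, which keeps the bridges between germ cells open, fell by 3.16 ± 0.36, and the RNA-binding protein Elavl2 by 2.92 ± 0.42. Dnd1, which protects germ cell messages from miRNAs and without which male germ cells form teratomas in some strains, read 7.90, 7.98 and 7.95 against 5.69 and 5.68. It fell by 2.11 ± 0.31 with hardly any spread within either genotype.

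Of the 17 measured RNA regulators 9 fell and 0 rose, with a median change of −1.34. The other 2 that fell were the Tudor domain genes Tdrd12 (−2.03 ± 0.36) and Tdrd5 (−1.23 ± 0.27, adjusted p = 0.018). Tdrd12 was not called without Wv/Wv array 1 (adjusted p = 0.292), and Tdrd5 not without wild-type array 3 or either mutant array (adjusted p = 0.0692 to 0.372). Members not called included Tdrd1 (−0.14 ± 0.19), Boll (−0.16 ± 0.47), Ddx25 (−0.15 ± 0.39) and Tdrd9 (−0.65 ± 0.34). Wild-type levels of Tdrd1 were low on all 3 arrays, from 4.40 to 4.52.

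The piRNA pathway, which silences transposons in the germ line with small RNAs bound to Piwi proteins, was already lower in part at this age. Mael, a component of the germ cell granules, read 8.68, 9.68 and 9.41 in wild type against 3.82 and 3.65, a fall of 5.16 ± 0.45 (adjusted p = 9.49e-08). Tex19.1, a mammalian protein that restrains retrotransposons, read 9.72, 10.04 and 10.53 against 4.96 and 5.26, and fell by 4.70 ± 0.57. Piwil2, the Piwi protein of prenatal germ cells, read 7.83, 7.82 and 8.43 against 4.86 and 4.58, and fell by 3.03 ± 0.40. The groups stood well apart in all 3. Asz1, an ankyrin repeat protein of the mitochondria-bound granules, fell by 3.82 ± 0.43, the helicase Mov10l1 by 2.56 ± 0.30 and the Piwi-binding protein Tdrkh by 1.44 ± 0.26. Morc1, a repressor of transposons, fell by 2.68 ± 0.61 and Exd1 by 1.19 ± 0.26.

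In all, 8 of 15 measured piRNA genes fell and 0 rose, with a median change of −1.44. Without Wv/Wv array 1 the count was 5: Tdrkh, Exd1 and Morc1 were then not called (adjusted p = 0.161, 0.412 and 0.502). Exd1 and Morc1 were also not called without wild-type array 2 or 3, and Exd1 not without Wv/Wv array 2. Gtsf1, which helps Piwi proteins cut their targets, read 5.21, 6.90 and 7.13 against 4.24 and 4.47, and its change of −2.09 ± 0.51 missed the threshold (adjusted p = 0.0523). It was called without wild-type array 1 (adjusted p = 0.00199), the lowest of its wild-type values. Piwil4, the nuclear Piwi protein, was low on every array (3.61, 4.52 and 5.02 against 2.99 and 3.13, change −1.08 ± 0.38, adjusted p = 0.478). Dnmt3l, the cofactor of new DNA methylation in fetal male germ cells, read 4.44 to 4.54 against 4.60 and 4.82.

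**Figure D2:**
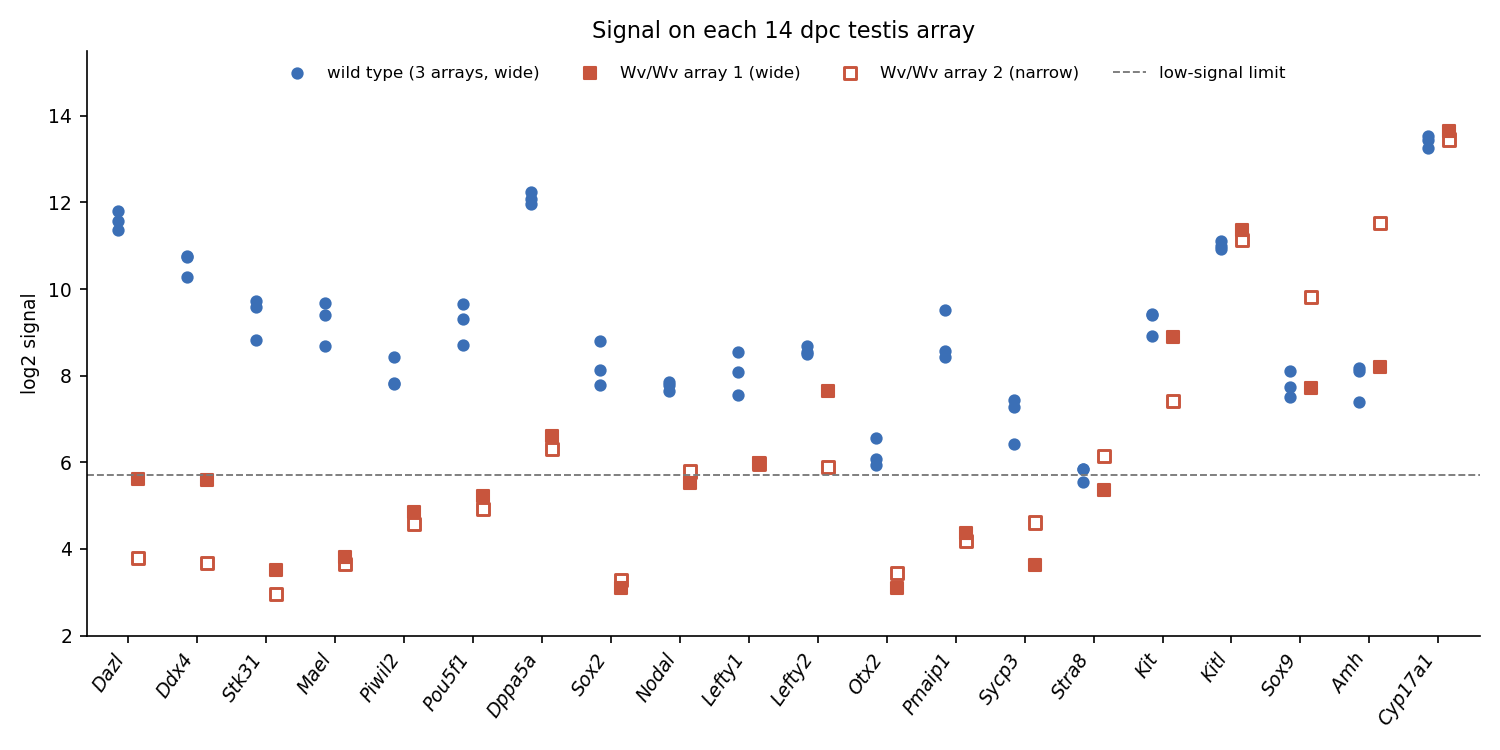
Log2 signal of 20 genes (x) on each of the 5 testis arrays at 14 dpc (y). Blue points are the 3 wild-type arrays, filled squares Wv/Wv array 1 and open squares Wv/Wv array 2; the germ cell genes at the left stand far apart between genotypes, Lefty2 reads 7.64 and 5.90 in Wv/Wv, and Sox9 and Amh are raised on Wv/Wv array 2 only.

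Pluripotency genes, which primordial germ cells share with embryonic stem cells, gave the largest median of the lists, −3.00, with 13 of 21 members lower and 0 higher. Pou5f1, which encodes the factor Oct4, read 9.31, 8.71 and 9.65 in wild type against 5.23 and 4.92 (−4.02 ± 0.56, adjusted p = 8.37e-05). Dppa5a read 12.08, 11.95 and 12.25 against 6.60 and 6.31 (−5.32 ± 0.69). Sox2, the partner of Oct4, read 8.14, 7.79 and 8.79 against 3.10 and 3.28 (−4.79 ± 0.81, adjusted p = 0.000951). Nanog, the third factor of this core, read 6.49, 5.60 and 6.52 against 4.02 and 3.94, so all 3 core factors were separated between the genotypes and Nanog fell by 2.20 ± 0.25. Falls were also called for Dppa4 (4.70 ± 0.58), Tcl1, a coactivator of Akt (3.96 ± 0.40), Sall4 (3.70 ± 0.75), the let-7 blocker Lin28a (3.44 ± 0.62), Dppa2 and Zfp42 (both 3.34), L1td1 (3.22 ± 0.30), Trim71 (3.00 ± 0.54) and Utf1 (1.75 ± 0.31).

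The 8 pluripotency genes that were not called included Klf4 (0.05 ± 0.23), Esrrb (−0.46 ± 0.26), Dnmt3b (0.24 ± 0.18) and Lin28b, which read 2.74 to 3.02 on the 5 arrays. Tet1 read 9.09, 8.79 and 9.00 against 8.39 and 6.39, lower mainly on the narrow array (−0.56 ± 0.20 with the class in the model, adjusted p = 0.48). Without Wv/Wv array 1 the count was 8, since Sox2, Sall4, Utf1, Lin28a and Trim71 were then not called (adjusted p = 0.113, 0.239, 0.161, 0.0625 and 0.206). Sall4 was also not called without wild-type array 3 or Wv/Wv array 2 (lowest adjusted p = 0.0595).

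Part of the list of genes that specify primordial germ cells in the early embryo also fell. Of 14 members 5 were called lower (0.758% of all genes were), 0 higher and 9 not called, with a median of −0.45. At an unadjusted p below 0.05 by limma, 7 were lower and 1 higher, and 4 of the 14 had a change above 0. Dppa3, also known as Stella, read 10.11, 10.06 and 10.77 against 5.58 and 6.03 (−4.65 ± 0.62). Prdm14, one of the factors that set up the germ line, read 7.28, 7.54 and 7.36 against 3.28 and 3.35 (−3.98 ± 0.46). Both were fully separated between genotypes. Prdm1, which encodes Blimp1, fell by 1.75 ± 0.29, Tfap2c by 3.07 ± 0.67 and the interferon-induced membrane protein Ifitm1 by 1.14 ± 0.24. Each array but wild-type array 1 decided a call here: without the others in turn the count was 2 or 3, and Tfap2c was then not called (adjusted p = 0.0594 to 0.26). Kit itself, which germ cells and some somatic cells of the testis express, read 9.41, 8.92 and 9.44 against 8.89 and 7.42, a change of −0.37 ± 0.25 (adjusted p = 0.927). Since Wv changes the protein and not the presence of the transcript, this level does not check the genotype.

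The Nodal pathway was lower in its ligands, its coreceptor and a target, and not in its receptors or Smad proteins. Nodal, a ligand of the TGF-beta family, read 7.85, 7.65 and 7.79 in wild type against 5.52 and 5.79. Lefty1, an inhibitor of Nodal that Nodal itself induces, read 8.56, 8.08 and 7.56 against 5.98 and 5.97. Tdgf1, the coreceptor Cripto, read 4.75, 4.95 and 4.86 against 3.53 and 3.52, low on all 5 arrays but with tight groups. Nodal fell by 2.31 ± 0.19 (adjusted p = 3.75e-08), Lefty1 by 2.42 ± 0.29 and Tdgf1 by 1.46 ± 0.24. The other Nodal probe set, of lower mean signal, changed by −0.38 and was not called (adjusted p = 0.9998). The homeobox gene Otx2 read 6.07, 5.93 and 6.55 against 3.10 and 3.44 and fell by 3.11 ± 0.23 (adjusted p = 2.03e-08). Lefty2, the neighbour of Lefty1, read 8.51, 8.68 and 8.55 against 7.64 and 5.90, so the mutant arrays differed from each other by more than array 1 did from wild type. Its fall of 1.53 ± 0.35 (adjusted p = 0.0309) was −0.94 without Wv/Wv array 2 (adjusted p = 0.9999) and was not called without any one of the wild-type arrays either (adjusted p = 0.07 to 0.136).

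The 7 other measured members of the pathway were not called. They were the receptors Acvr1b (0.31 ± 0.17), Acvr2a (0.15 ± 0.14) and Acvr2b (−0.07 ± 0.24), the signal carriers Smad2 (0.16 ± 0.24) and Smad3 (0.31 ± 0.18), their partner Foxh1 (−0.27 ± 0.31) and the target Eomes (−0.24 ± 0.18). All 3 receptors read between 7.14 and 9.70 on the 5 arrays.

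Part of the meiosis list fell in the testis, while Stra8 lay near the low-signal limit in both genotypes. Stra8 read 5.54, 5.84 and 5.86 in wild type against 5.37 and 6.14, and Meioc, which keeps the meiotic programme going, read 3.35, 3.81 and 3.96 against 3.10 and 3.14. Neither was called (−0.25 ± 0.55 and −0.44 ± 0.27). Of 28 members 11 fell and 0 rose, with a median change of −0.79. Most are known for the chromosome axis, the synaptonemal complex, meiotic cohesin or recombination. The changes were −3.04 ± 0.36 for Tex11, −2.92 ± 0.31 for Sycp1, −2.84 ± 0.37 for Hsf2bp, −2.83 ± 0.39 for Hormad1, −2.80 ± 0.51 for Sycp3, −2.78 ± 0.38 for Tex12 and −2.68 ± 0.38 for Syce1. The other 4 were Smc1b (−2.53 ± 0.33), Sycp2 (−2.22 ± 0.45), Stag3 (−2.15 ± 0.35) and Spo11, the enzyme that makes the meiotic breaks (−1.67 ± 0.31).

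Sycp3, a protein of the chromosome axis, read 6.42, 7.28 and 7.45 in wild type against 3.63 and 4.61. Smc1b, a cohesin subunit, read 7.93, 8.26 and 8.30 against 5.32 and 5.97, and Hormad1 6.29, 6.49 and 6.51 against 3.36 and 3.54. Wild-type levels stood above the low-signal limit in all 3, but below the means in wild-type ovaries, which were 10.59, 10.94 and 8.81. Without Wv/Wv array 1 the count was 7, and Sycp2, Sycp3, Stag3 and Spo11 were then not called (adjusted p = 0.239, 0.311, 0.083 and 0.165). Sycp2 was also not called without wild-type array 2 or 3 or Wv/Wv array 2 (lowest adjusted p = 0.0624).

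Genes of the oocyte list were mostly at low levels, and 2 of 16 fell. Sohlh2, a transcription factor of early germ cells of both sexes, read 8.19, 8.14 and 8.42 against 5.24 and 5.82 and fell by 2.74 ± 0.38. Taf4b, a subunit of a germ cell form of the TFIID complex, read 8.41, 8.46 and 8.81 against 7.54 and 6.60. Its fall of 1.34 ± 0.31 (adjusted p = 0.0298) was not called without any 1 of the 5 arrays (adjusted p = 0.0508 to 0.916).

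Promoters of the genes called lower were read for a pair of motifs that earlier work places at germ line genes, the E-box CACGTG and the E2F-type motif GGCGGGAA, on both strands in the 250 bases before the start site. RefSeq promoters of build GRCm38.p6 were matched to 111 of the 138 genes by symbol. CACGTG was in 16 of the 111 (14.4%) and in 7.56% of 14453 promoters of all genes tested. GGCGGGAA was in 8 (7.21%) and in 2.8% of all. Both were in 3, those of Ddx4, Hormad1 and Tex12, against 0.235% of all. Of 9 meiosis genes with a promoter that fell, 5 held CACGTG, while of 9 pluripotency genes 0 held either motif, nor did 3 Nodal pathway genes. The 3 promoters with both motifs are shown with those of Dazl and Nodal, which hold neither; capitals mark the motifs. They lie at chr13:112652311-112652560 (Ddx4, minus strand), chr3:95559427-95559676 (Hormad1, plus strand), chr9:50561269-50561518 (Tex12, minus strand), chr17:50293621-50293870 (Dazl, minus strand) and chr10:61417722-61417971 (Nodal, plus strand).
Ddx4: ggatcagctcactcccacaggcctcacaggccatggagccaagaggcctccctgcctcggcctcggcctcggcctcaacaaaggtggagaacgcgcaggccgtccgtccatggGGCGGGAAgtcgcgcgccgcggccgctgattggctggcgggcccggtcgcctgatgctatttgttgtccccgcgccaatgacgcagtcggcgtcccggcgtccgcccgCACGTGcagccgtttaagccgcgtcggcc
Hormad1: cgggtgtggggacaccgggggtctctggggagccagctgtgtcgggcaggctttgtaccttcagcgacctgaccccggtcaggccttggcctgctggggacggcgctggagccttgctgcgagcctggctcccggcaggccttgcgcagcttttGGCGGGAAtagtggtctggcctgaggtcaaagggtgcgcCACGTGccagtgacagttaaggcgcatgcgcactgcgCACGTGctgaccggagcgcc
Tex12: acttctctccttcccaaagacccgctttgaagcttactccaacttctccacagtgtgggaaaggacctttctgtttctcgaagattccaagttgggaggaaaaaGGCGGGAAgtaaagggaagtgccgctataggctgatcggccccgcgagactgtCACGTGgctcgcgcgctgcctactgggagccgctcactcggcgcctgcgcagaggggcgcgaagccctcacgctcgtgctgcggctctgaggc
Dazl: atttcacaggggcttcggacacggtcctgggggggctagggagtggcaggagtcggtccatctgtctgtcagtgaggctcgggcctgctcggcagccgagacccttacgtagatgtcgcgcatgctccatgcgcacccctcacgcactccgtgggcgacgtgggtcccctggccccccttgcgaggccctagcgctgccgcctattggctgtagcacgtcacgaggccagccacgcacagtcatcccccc
Nodal: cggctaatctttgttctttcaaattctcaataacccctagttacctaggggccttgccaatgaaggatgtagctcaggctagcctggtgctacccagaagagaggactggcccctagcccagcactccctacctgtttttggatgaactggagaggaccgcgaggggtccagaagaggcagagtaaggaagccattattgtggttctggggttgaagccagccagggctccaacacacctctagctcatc
Hormad1 holds CACGTG at 2 places and GGCGGGAA at 1, and Ddx4 and Tex12 hold each motif at 1 place. A match describes the letters of the window and not a bound site.

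One gene of the p53 list stood apart from the other 22. Pmaip1, the gene of the cell death protein Noxa, read 8.57, 8.44 and 9.52 in wild type against 4.36 and 4.18. It fell by 4.44 ± 0.36 (adjusted p = 3.75e-08), among the 20 largest falls. The other members lay between −0.52 (Cdkn1a, the p21 cell cycle inhibitor, ± 0.27) and 0.51 (Casp9, a caspase, ± 0.22), and the list's median was 0.02, or −0.35 with no class term in the model. Bbc3, the related protein Puma, read 6.48 to 6.54 in wild type against 6.45 and 7.22, and Mdm2 9.44 to 9.60 against 9.19 and 8.87. Neither was called (−0.13 ± 0.28 and −0.16 ± 0.17).

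Of 23 mitotic genes, 1 fell, the kinetochore protein Cenpf, with 10.89, 11.27 and 11.25 against 10.42 and 9.04 and a change of −0.79 ± 0.19 (adjusted p = 0.0341), the smallest fall of the 138. It kept its call only when wild-type array 1 was left out, and lost it without each of the other 4 arrays (adjusted p = 0.163 to 0.507). The list's median was −0.01 with the class in the model, −0.47 with no class term and 0.16 without Wv/Wv array 1, so its direction depends on these choices. Against the wild-type mean the median was −0.19 on Wv/Wv array 1 and −0.80 on the narrow array 2, and both mutant arrays lay below all wild-type arrays for 14 of the 23, against 14.9% of all genes. On the list of G1 inhibitors 0 of 14 were called by limma, with 0 higher and 1 lower at an unadjusted p below 0.05. Of all genes 2.73% were higher and 2.79% lower at that threshold. That 1 was Rb1, the retinoblastoma protein, which read 8.67, 8.83 and 8.81 against 7.94 and 6.07 (−0.82 ± 0.23, adjusted p = 0.162).

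Further large falls were in genes outside the lists. The mitochondrial ADP/ATP carrier Slc25a31, specific to the germ line, read 9.17, 9.66 and 9.92 against 4.89 and 3.31 and fell by 4.97 ± 0.39. The X-linked genes Trap1a and Mageb16, of families active in germ cells and tumours, fell by 4.55 ± 0.50 and 4.47 ± 0.55. Esrp1, an epithelial splicing factor, fell by 4.14 ± 0.63. Each had both mutant arrays low. Of the 138 genes, 8 (5.8%) lie on the X chromosome, against 3.39% of all genes tested. One, Uba1y, the Y-linked copy of the ubiquitin-activating enzyme, lies on the Y and read 10.05, 10.21 and 10.69 against 7.20 and 5.77. It fell by 3.61 ± 0.58, while 0 of 7 genes on the list of other Y-linked genes and Xist were called by limma (0 at an unadjusted p below 0.05). Eif2s3y, for example, read 10.35, 10.65 and 10.40 against 10.01 and 8.12.

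Among the 138 genes, 13 neighbouring pairs lay within 200 kb of each other on the RefSeq assembly GRCm38.p6. They included Lefty1 and Lefty2, Tex19.1 and Tex19.2, Dppa4 with Dppa2 and Dppa2 with Morc1, Dppa3 and Nanog, and Zfp42 with Triml1. Pairs among all genes tested were not counted, so the 13 do not show clustering. Probe sets of near-identical copies, such as Tex19.1 and Tex19.2 or Uba1y and its X-linked partner, may share signal, which was not tested. For 50 of the genes the arrays hold further probe sets, 75 in all, of which 65 also had a negative change, 16 were called lower and 0 higher. For comparison, 6902 of all 18194 genes had a negative change, and 198 of all 45101 probe sets were called lower. Most of the 75 further sets were not called. Those not called included the other sets of Nodal, Gng13 (−0.07), Hsf2bp (0.04) and Tfap2c (−0.48 and −0.14). A further 22 probe sets without a symbol of their own were called lower and are not named here.

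Most lists of somatic markers held no called gene. The Sertoli list had 0 of 30 called by limma (2 higher and 0 lower at an unadjusted p below 0.05, against 2.73% and 2.79% of all genes), with a median of 0.30. Sox9, the factor that makes Sertoli cells, read 7.73, 7.52 and 8.11 against 7.71 and 9.81, and Amh, the hormone that removes the Müllerian ducts, 8.19, 7.39 and 8.12 against 8.19 and 11.52. In both, Wv/Wv array 1 lay within the wild-type range and the narrow array 2 far above it. With the class in the model the changes were 0.35 ± 0.31 and 1.08 ± 0.49 (adjusted p = 0.932 and 0.852). Dhh, the hedgehog ligand of Sertoli cells, read 10.27 to 10.47 against 10.32 and 10.66.

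The lists of other resident cells gave no calls by limma in either direction: 0 of 7 Leydig genes, 0 of 14 interstitial genes, 0 of 9 peritubular genes, 0 of 14 endothelial genes and 0 of 14 macrophage genes. At an unadjusted p below 0.05 these lists held 0, 1, 0, 2 and 0 genes higher and 0 lower, where 2.73% of all genes were higher and 2.79% lower. Their medians were 0.34, 0.40, 0.14, 0.32 and 0.00, against 0.06 for all genes and 0.13 for 12 housekeeping genes. With no class term they were 0.13, −0.03, 0.13, 0.15 and −0.03, against 0.01 and −0.10, so the interstitial, macrophage and housekeeping medians turned sign. On Wv/Wv array 2 alone the interstitial median was −0.30 from the wild-type mean, and on array 1 it was 0.26. Of the 58 genes on these 5 lists, 49 had a change above 0, as had 11292 of all 18194; with no class term these were 35 and 9326. Star, which carries cholesterol into the mitochondria of Leydig cells, read 10.95, 10.62 and 10.65 against 11.11 and 10.20, and Acta2, smooth muscle actin, 12.78 to 12.92 against 13.05 and 13.01. Kitl, the ligand of Kit made by Sertoli cells, read 11.11, 10.91 and 11.00 against 11.37 and 11.13 (0.51 ± 0.28, adjusted p = 0.927).

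**Figure D3:**
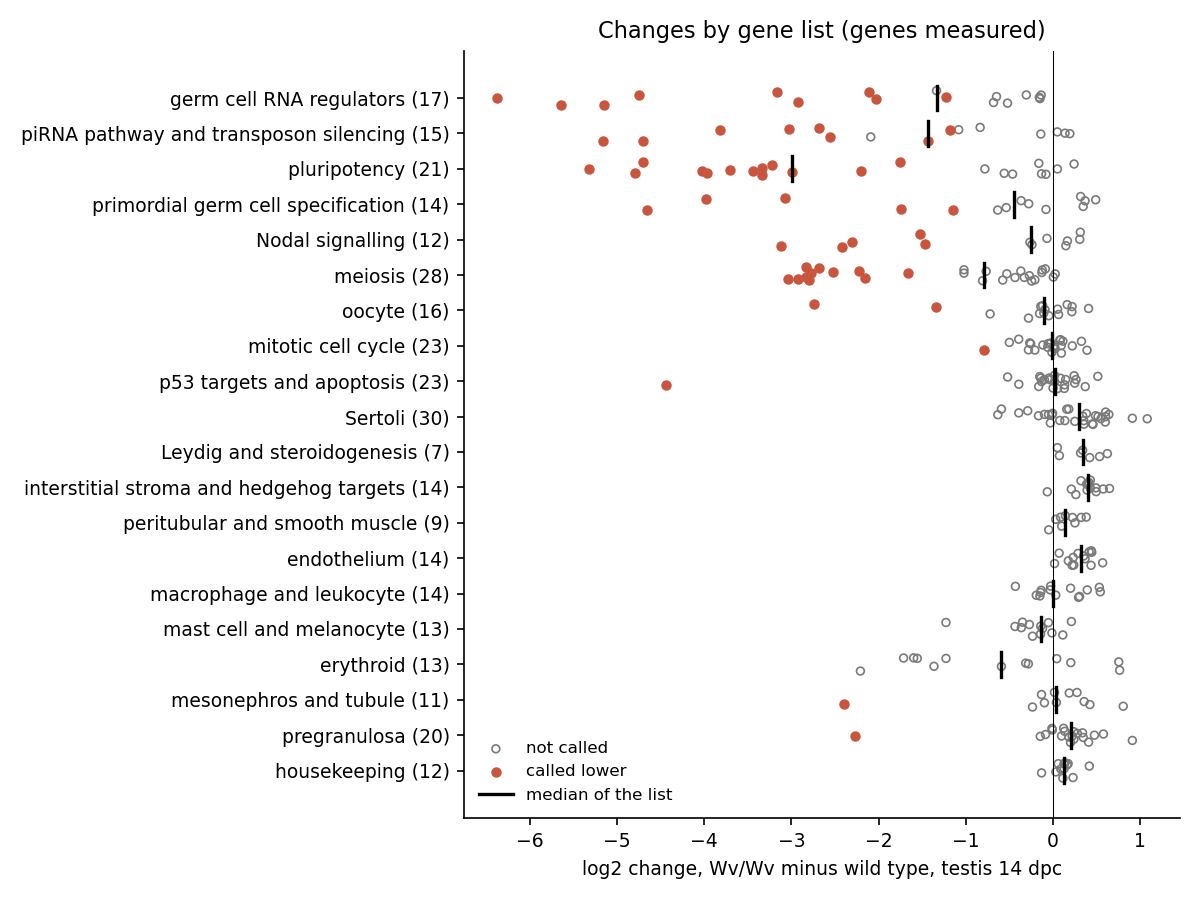
Log2 change in the 14 dpc testis (x) of each measured member of 20 gene lists (y, number of members in brackets). Filled points are called lower, open points are not called, and bars mark the list medians, which run from −3.00 for pluripotency to 0.40 for the interstitial list (−0.03 with no class term).

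A pair of markers named for other tissues fell. Lhx1, a homeobox gene on the mesonephros list, read 7.37, 6.93 and 7.38 against 4.80 and 5.26 and fell by 2.40 ± 0.37, while Pax8, the defining factor of that list, read 5.20, 5.63 and 5.42 against 5.67 and 6.03. Gng13, a G protein subunit on the pregranulosa list, read 7.10, 7.47 and 7.84 against 5.59 and 5.42 and fell by 2.27 ± 0.28, while Foxl2 read 6.26, 6.51 and 6.49 against 6.60 and 7.23. The other 10 and 19 members of these lists were not called. Lhx1 also lost its call on wide-spread arrays alone (adjusted p = 0.0592).

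Red cell genes differed between the wild-type arrays themselves. Klf1, the erythroid transcription factor, read 9.12, 9.12 and 7.41 in wild type against 7.03 and 7.16, and Rhag, of the red cell membrane, 7.06, 7.21 and 5.60 against 4.37 and 4.73. Wild-type array 3 lay closer to the mutants than to the other wild-type arrays in Klf1. Of 13 erythroid genes 0 were called by limma, 5 were lower at an unadjusted p below 0.05 (2.79% of all genes were), and the median was −0.59. Leaving out 1 array moved that median between −0.17 (without Wv/Wv array 1) and −0.97 (without wild-type array 3). Without wild-type array 3 Klf1 was called lower (−2.17, adjusted p = 0.0358). Mast cells also depend on Kit, and the mast cell protease Cpa3 read 6.11, 5.98 and 4.89 against 4.42 and 5.01 (−1.23 ± 0.50, adjusted p = 0.756). This was the largest fall of the 13 mast cell and melanocyte genes, of which 0 were called by limma. Their median was −0.14, or 0.09 with no class term. Both mutant arrays lay below all wild-type arrays for 1 of the 13 and above them for 3 (14.9% and 17.3% of all genes).

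The gene called higher was Cap1, which binds actin. It read 8.13, 6.83 and 8.29 in wild type against 8.99 and 8.98, a rise of 1.36 ± 0.33 (adjusted p = 0.0471) that owed part of its size to wild-type array 2. Without that array the change was 0.90 (adjusted p = 0.347), and Cap1 was also not called without either mutant array (adjusted p = 0.228 and 0.6). The count of genes called higher was 0 to 5 over all settings tried.

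The 14 dpc ovary was measured on other arrays. In Wv/Wv ovaries 1462 genes (8.04%) were called lower and 400 (2.2%) higher, and 104 of the 138 testis genes were among the lower ones, 75.4% of the testis list and 7.11% of the ovary list. Across the 138 genes the changes in the 2 gonads had a correlation of 0.69 (genes are not independent replicates). Dazl changed by −6.38 in testis and −6.70 in ovary, and Pou5f1 by −4.02 and −4.19. Tested directly, the testis effect was lower than the ovary effect for 20 genes (0.11%) and higher for 160 (0.879%). Of the 138 genes, 17 fell more in testis, the Y-linked Uba1y that ovaries lack among them, and 12 fell less. The same testis arrays chose these genes, so the split describes the list only. The total of 180 was 56 without Wv/Wv testis array 2, 92 without array 1, 102 without wild-type ovary array 2, 118 without Wv/Wv ovary array 3 and 274 without wild-type ovary array 3.

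All 5 called genes of the Nodal list were among those that fell more in testis. All 5 were low in wild-type ovaries, so a fall there could hardly be measured. The means were 5.56 for Lefty1, 3.71 for Lefty2, 3.51 for Tdgf1 and 3.16 for Otx2. Nodal changed by 0.08 in ovary, where the wild-type mean was 5.69, and the difference between gonads was −2.39 ± 0.25 (adjusted p = 2.7e-06). The differences were −3.22 for Otx2, −2.20 for Lefty1, −1.88 for Lefty2 and −1.60 for Tdgf1. The largest was that of Pmaip1, −4.48 (adjusted p = 3.5e-06), whose wild-type ovary mean of 3.62 was low. Hesx1, a homeobox repressor, fell by 2.83 in testis and changed by −0.35 in ovary, a difference of −2.48 (adjusted p = 0.0007). Its wild-type ovary mean of 5.21 was also low. L1td1 fell in both gonads, by 3.22 and 1.34. Lhx1 and Gng13, the genes from the mesonephros and pregranulosa lists, also fell more in testis, with differences of −2.07 and −1.98. In wild-type ovaries Lhx1 was low (mean 5.16) and Gng13 was not (10.57).

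Of the 12 genes that fell less in testis, 5 were on the meiosis list. Of that list 26 of 28 fell in the ovary (8.04% of all genes did), with a median of −2.92 against −0.79 in testis. All 28 had a testis effect above the ovary effect, a difference called for 11. Over all genes that difference had a median of 0.06 and was called positive for 0.879%. Sycp3 fell by 6.19 in ovary (difference 3.39, adjusted p = 0.0075) and Tex12 by 5.65 (difference 2.87). Stra8 and Meioc, not called in testis, fell by 5.74 and 5.66 in ovary.

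**Figure D4:**
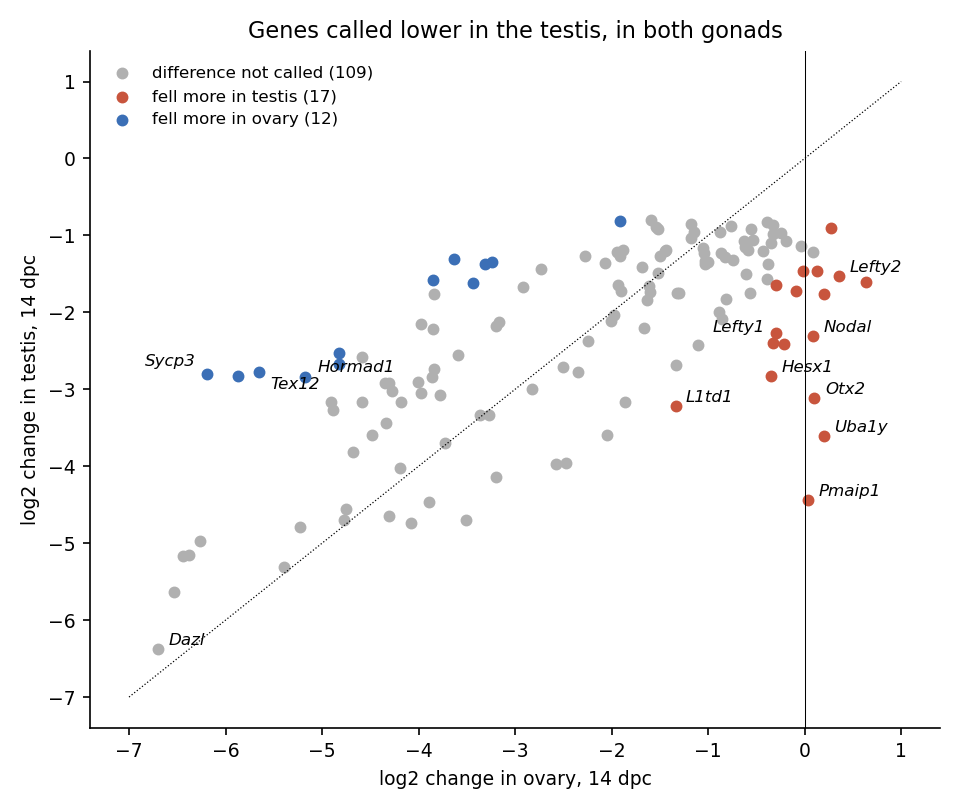
Log2 change in the 14 dpc ovary (x) and testis (y) of the 138 genes called lower in testis; the dotted line marks equal change. Red points fell more in testis (17), blue points fell more in ovary (12), and Nodal, Otx2, Pmaip1 and Uba1y lie near 0 in the ovary. Uba1y is Y-linked, so ovaries lack it.

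At 16 dpc, again on other arrays, 175 genes (0.962%) were called lower in Wv/Wv testes and 5 (0.0275%) higher. Of the 138 genes 55 were among the lower ones, 39.9% of the 14 dpc list and 31.4% of the 16 dpc list, and 48 were lower in both the 16 dpc testis and the 14 dpc ovary. A further 27 were called in neither. Tested directly, the change at 16 dpc was above that at 14 dpc for 22 genes (0.121%) and below it for 11 (0.0605%). All 22 were genes called lower at 14 dpc. The same 14 dpc arrays enter both tests, so this overlap is partly built in and describes the list only. The total of 33 was 17 without Wv/Wv 14 dpc array 2, 18 without array 1, 20 without Wv/Wv 16 dpc array 1 and 58 without wild-type 16 dpc array 3.

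Nodal fell at 14 dpc and was not called at 16 dpc. Its wild-type mean was 7.76 at 14 dpc and 5.73 at 16 dpc, against 5.65 and 5.67 in Wv/Wv, and the effect changed by 2.251 (adjusted p = 5.6e-05). Otx2 (2.62), Lefty2 (2.20) and Lefty1 (1.99) differed in the same direction, and Prdm14 and the pluripotency genes L1td1, Tcl1 and Nanog did as well, by 3.73, 3.30, 3.25 and 1.97. Prdm14 was not called in this test without Wv/Wv 14 dpc array 1 (adjusted p = 0.0678). Lhx1 (2.44) and Gng13 (2.15) were also among the 22. The effect on Pmaip1 differed by 3.18, with a wild-type mean of 8.84 at 14 dpc and 5.18 at 16 dpc. In Nodal and Pmaip1 the wild-type level was lower at 16 than at 14 dpc, and the Wv/Wv means were at or under the low-signal limit at both ages. Lefty2 means stayed above that limit in both genotypes. They were 8.58 in wild type and 6.77 in Wv/Wv at 14 dpc, and 6.87 and 7.54 at 16 dpc.

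Genes of the piRNA pathway were among those with the opposite difference. Piwil4 had a wild-type mean of 8.09 at 16 dpc and a change of −5.15 there, so that the effect differed from that at 14 dpc by −4.06 (adjusted p = 7.4e-05). Tdrd9, a helicase of the pathway, differed by −3.36 and Dnmt3l by −3.16. Mael, Piwil2, Asz1 and Mov10l1 were lower at both ages, with no called difference between them.

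**Figure D5:**
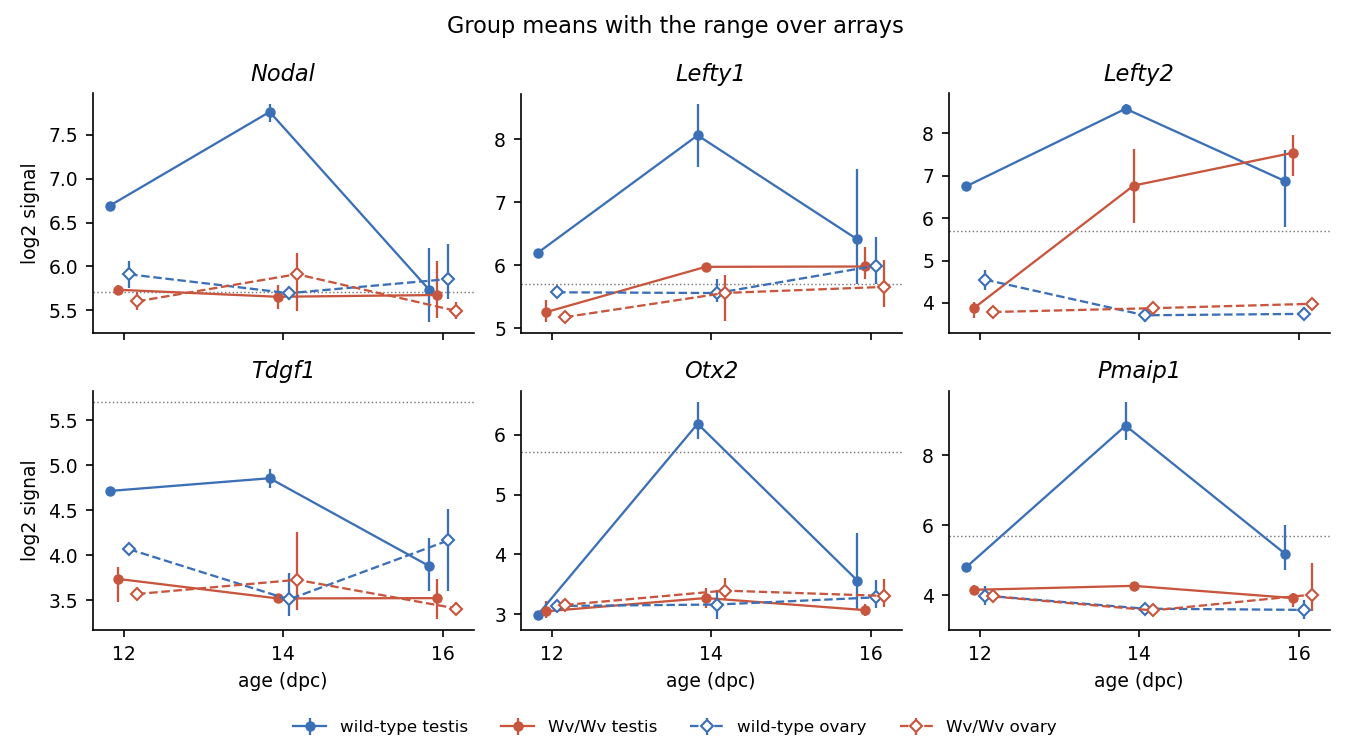
Mean log2 signal (y) by age in dpc (x) for 6 genes in wild-type (blue) and Wv/Wv (red) testes (filled, solid) and ovaries (open, dashed); bars are the range over 1 to 3 arrays and the dotted line is the low-signal limit. Nodal, Otx2 and Pmaip1 are highest in wild-type testes at 14 dpc, while Lefty2 is also above 5.705 in both Wv/Wv testis groups at 14 and 16 dpc.

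The class of Wv/Wv array 2 moved with some of these values. For all genes, the difference between the 2 mutant arrays had a correlation of 0.90 with the class shift of the model, and for the 138 genes 0.79. The class shift was estimated in part from these same 2 arrays, so the correlations are partly built in. Array 2 lay below array 1 for 60.9% of the 138 genes and for 53.3% of all genes. With no class term 108 genes were called, all lower, 107 of them among the 139, and with wide arrays alone 171 were called, 168 lower. Dazl, Ddx4, Nodal, Pou5f1, Piwil2 and Pmaip1 were called lower in every setting with 1 probe set per gene, as were 48 genes in all. Genes that the filter for dim genes left out are not among the 48.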

How the data were processed

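The deposited values are log2 signals of 45101 probe sets that the authors made with RMA, per the submitters' processing notes. No RMA version is named in these sources. RMA includes a step that aligns the arrays processed together, so a shift in total RNA may not be visible; the deposited arrays still differ in spread. The platform annotation gave gene names: 34958 probe sets have 1 symbol, 932 have several and 9211 are unlisted. The set with the highest mean over 31 arrays stood for each of 18194 genes. limma 3.58.1 in R 4.3.3 (lmFit, eBayes) fitted 1 mean for each of 12 groups plus the array class (SD boundary 2.25), with 18 residual and 6.153 prior degrees of freedom. The fit was tested on simulated data. Arrays have no depth, and their number limits the precision.

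Members, lists and tests were chosen with earlier results of these data known. Named genes were the 20 largest falls and 10 largest rises called with arrays apart, up to 4 called members per list or the 2 largest changes, fixed markers, the 5 largest interactions each way, and members of the lists described; others were chosen after their values were seen. Alternatives changed class, weights, arrays, normalization, filter, probe sets, prior, minimum change or the replicate block. Tables and figures used Python 3.11.15 and matplotlib 3.10.9.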

Additional observations from a re-analysis of the deposited data

Results flagged for a closer look

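Results appear here because the genotype effect differed between gonads or ages by an interaction test in limma (adjusted p below 0.05). No group of the comparison is large enough for the check on outlying samples. Between gonads at 14 dpc, the 5 most negative differences (testis effect minus ovary effect, log2) were −4.48 for Pmaip1, −3.81 for Uba1y, −3.22 for Otx2, −2.48 for Hesx1 and −2.39 for Nodal. Uba1y is Y-linked, and ovaries carry no Y chromosome, so no fall could be measured there (wild-type ovary mean 4.16). Its difference between gonads therefore holds the testis change alone. It was not called without Wv/Wv testis array 2 (−3.27, adjusted p = 0.144). The 5 most positive were 5.50 for Stra8, 5.22 for Meioc, 4.70 for 1700013H16Rik, 4.45 for Tex101 and 4.20 for Rhox6, none of them called in testis.

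Between ages in the testis, the 5 most positive differences (effect at 16 minus effect at 14 dpc) were 3.73 for Prdm14, 3.30 for L1td1, 3.25 for Tcl1, 3.18 for Pmaip1 and 2.74 for the transcription factor gene Olig1. The 5 most negative were −4.06 for Piwil4, −3.43 for the X-linked RNA export gene Nxf2, −3.36 for Tdrd9, −3.16 for Dnmt3l and −2.95 for Tktl1. Olig1 was not called in 4 and Tktl1 in 6 of the fits that left out 1 array (highest adjusted p = 0.172 and 0.318).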

How the results depend on the processing

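Leaving out 1 array at a time gave 81 to 138 calls for the genotype comparison (139 with all arrays), 56 to 274 for the gonad interaction (180) and 17 to 58 for the age interaction (33). A fit without a mutant array has 1 array in that group, which is taken to vary like the other groups. For the genotype comparison array weights gave 255 and the replicate block 80 calls. The fits without either mutant array also moved the count by more than 1.5 times, and the other settings stayed within that range. For the gonad interaction the count was 50 with no class term, 94 on wide arrays alone, 351 without wild-type testis 16 dpc array 1, 17 with only the arrays compared, 808 with array weights, 307 with cyclic loess, 89 with housekeeping centring (69 positive, 20 negative against 160 and 20) and 75 with the replicate block. For the age interaction it was 15 with no class term, 18 on wide arrays alone, 3 with only the arrays compared, 82 with array weights, 15 with dim genes left out and 12 with the replicate block. Housekeeping centring gave 7 positive and 19 negative against 22 and 11. It moved the median of all genes in the genotype comparison from 0.06 to −0.06. The cause of these differences was not tested.

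Whether same-numbered testes shared more than a number could not be tested. Their deviations correlated at 0.06 and 0.004, but those of the Wv/Wv arrays are mirror images of each other. They also hold the difference between the wide and the narrow class, so a shared litter or batch could go unseen. The replicate block took the call from 14 of 64 called named genes. Of these 64, 41 kept their call in every setting that tested them, where a gene left out as dim counts as not tested. Of 84 called results on single genes, interactions included, 0 changed sign. Of 123 named genes not called, 7 gained a call and 51 changed sign in at least 1 setting, 34 of them with no class term; Stra8, for example, changed by 0.01 and Bbc3 by 0.33 there. Levels under 5.705 limit the measured size of 83 of the 138 falls.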

Other observations

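Cpeb1, which controls the addition of poly(A) tails to stored messages, fell by 3.60 in the 14 dpc testis, and Fbxo15, a known target of Oct4, by 2.70; both were chosen after their values were seen. The maternal-effect gene Khdc3 fell by 1.73 in the 14 dpc testis, with changes of −0.09 in the 14 dpc ovary and −0.04 in the 16 dpc testis (differences −1.63 and 1.68, both called). Of the 4 Rhox genes measured 0 were called by limma in the 14 dpc testis (1 lower at an unadjusted p below 0.05), and their median in the 14 dpc ovary was −4.44. Rhox5 read 9.20, 9.42 and 9.23 in wild-type testes against 6.95 and 6.37 (−2.41, adjusted p = 0.136). These arrays did not overlap, as was so for 14.9% of all genes in that direction.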
